A study of Mus musculus with 8 samples.

Results

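This account follows 41 genes of cytokines, chemokines, adhesion molecules and NF-kB signalling in mouse heart. They were taken by symbol from a list of the pathway, drawn up with earlier results of these data known, and all 41 were found among the 30153 genes of the deposited table. Heart RNA of aged C57/BL6 mice was sequenced in 8 libraries. The control group (n = 4) is labelled as aged mice of haplotype II. The other group (n = 4) carries the same haplotype and age label and received in addition a western diet, meaning a high-fat, high-sugar chow. The series title describes the mice as overexpressing a human angiotensin type 1 receptor, so the controls carry that human gene too. For the promoter of the human gene, the exact age, the sex and the length of feeding no value was found in the labels. Whether the libraries come from separate animals is not said in them, so every p-value measures the spread between these samples, which may be partly technical.

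Cytokines and chemokines are small secreted proteins by which cells call in and activate leukocytes. Chemokines act through receptors on leukocytes, and endothelial adhesion molecules then let those cells hold on to the vessel wall and leave the blood. NF-kB is the transcription factor family that switches on many of these genes. It is held in the cytoplasm by inhibitors such as IkB alpha, the product of Nfkbia, which NF-kB itself induces. In the heart the ligands come from endothelium, fibroblasts, resident macrophages, recruited leukocytes and stressed muscle cells.

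Promoter windows are shown first for 5 members. Those with the clearest differences, Ccl9, Ccl6 and Lcn2, can be set beside Nfkbia and Il6 of the classical NF-kB response. Each is the stretch of 250 bases before the gene's start site, from RefSeq on GRCm38.p6, written 5′ to 3′ on the gene's strand. Capitals mark matches to the kappa B consensus, the 10-base site bound by NF-kB dimers, searched on both strands.
Ccl9, chr11:83578637-83578886, minus strand: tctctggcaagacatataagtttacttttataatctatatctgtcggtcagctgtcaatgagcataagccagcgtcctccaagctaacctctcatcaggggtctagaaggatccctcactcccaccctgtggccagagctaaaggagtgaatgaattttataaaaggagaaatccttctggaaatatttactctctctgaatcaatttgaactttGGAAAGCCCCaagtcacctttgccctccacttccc
Ccl6, chr11:83593088-83593337, minus strand: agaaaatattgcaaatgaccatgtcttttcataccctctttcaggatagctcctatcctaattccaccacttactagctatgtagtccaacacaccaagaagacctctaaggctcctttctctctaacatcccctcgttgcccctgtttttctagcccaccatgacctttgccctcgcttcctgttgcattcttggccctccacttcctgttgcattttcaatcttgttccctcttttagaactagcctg
Lcn2, chr2:32387740-32387989, minus strand: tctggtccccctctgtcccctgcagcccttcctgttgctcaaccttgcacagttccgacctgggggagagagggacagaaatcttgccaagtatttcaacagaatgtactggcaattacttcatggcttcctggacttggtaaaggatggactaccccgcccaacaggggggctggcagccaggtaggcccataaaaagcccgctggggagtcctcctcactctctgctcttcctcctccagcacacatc
Nfkbia, chr12:55492648-55492897, minus strand: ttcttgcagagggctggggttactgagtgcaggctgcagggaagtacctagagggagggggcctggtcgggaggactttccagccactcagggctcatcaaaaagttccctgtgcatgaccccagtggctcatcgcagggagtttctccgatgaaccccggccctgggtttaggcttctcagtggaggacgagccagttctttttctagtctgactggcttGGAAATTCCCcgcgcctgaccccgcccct
Il6, chr5:30012864-30013113, plus strand: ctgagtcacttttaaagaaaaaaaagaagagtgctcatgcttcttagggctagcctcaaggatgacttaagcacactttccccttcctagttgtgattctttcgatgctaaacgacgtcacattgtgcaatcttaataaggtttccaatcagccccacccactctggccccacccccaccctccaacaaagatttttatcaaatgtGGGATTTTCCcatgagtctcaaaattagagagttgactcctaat

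Of the 41 members, 30 had a promoter window in the RefSeq table, and 10 of those 30 held a kappa B match. Over windows, 32.4% of the members' 37 windows held one (some genes have more than 1 start), beside 7.25% of all 32851 windows of that length. The matches were in Csf1, Il6, Cxcl1, Cxcl2, Cxcl10, Il16, Nlrp3, Ccl9, Nfkbia and Nfkb2. Windows of Tnf, Il1a, Il1b, Icam1, Sele, Ptgs2 and Ccl3 held none, so Nfkbia and Il6 do not stand for all inflammatory genes here. In Nfkbia the match GGAAATTCCC ended 20 bases before the start site, and in Il6 the match GGGATTTTCC ended 35 bases before it. A kappa B match did not go with a particular level: 5 of the 10 genes reached the minimum for testing and 5 did not, Il6 among the latter. Windows of Ccl6 and Lcn2 held no match, which says only that these letters are not in these 250 bases. Ccl2, Ccl4, Ccl5, Ccl7, Ccl11, Il10, Il15, Il34, Nfkb1, Relb and Vcam1 had no window in the table.

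The libraries differed in ways other than the label, some of which ran with diet and some across it. The labels number no replicates. Replicates 1 to 4 were numbered here in the order of the sample titles, B5 to B8 for control and B13 to B16 for western diet. Levels are in TPM, a share of all transcripts scaled to a fixed total and corrected for transcript length. Read depth cannot be had from such values and is unknown. Eif2s3y, a Y-linked gene, had 21.1 to 29.0 TPM in control libraries and 22.3 TPM in replicate 4 of the western diet group, and was at or near 0 in the other 3 of that group. Y-linked transcripts and diet are thus partly confounded, and the labels give no sex. The atrial gene Myl7 exceeded 100 TPM in control replicates 1 and 3 and western diet replicate 2. Kap, a kidney transcript, was at 0 to 0.685 TPM in control and 7.15 to 72.1 TPM with western diet. Miox and Slc34a1 of the same list were at 0 in control and at 0.601 to 2.73 and 0.259 to 2.86 TPM with western diet. The summed level of 5 kidney genes was 0.0336 to 0.744 TPM in control and 9.38 to 79.1 TPM with western diet. Kidney transcripts thus ran fully with diet, and their part in any result, those of Lcn2 and Spp1 included, was not tested. Western diet replicate 1 held the most red cell RNA, with a summed level of 5 red cell genes of 14256 TPM against 1975 to 5283 TPM elsewhere. Western diet replicate 4 had the highest levels of the interferon-induced genes Irf7 and Isg15, at 61.0 and 34.4 TPM. Irf7 was at 10.5 to 14.7 TPM in western diet replicates 1 to 3 and at 3.65 to 5.32 TPM in control. For Isg15 these ranges were 7.88 to 17.7 and 3.54 to 5.24 TPM. Heart identity was clear in each library, with summed levels of 8 ventricular muscle genes of 33017 to 44039 TPM.

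The hearts held little RNA of the classical inflammatory cytokines, and this was so in both groups. Il6 was listed at 0 in all 8 libraries. Il10, which encodes an anti-inflammatory cytokine, was listed at 0 in 6 of them. Tnf, the precursor of tumour necrosis factor, was at 0 to 0.399 TPM, Il1a at 0.184 to 0.456 TPM and Il18 at 0 to 0.760 TPM. Il1b, the interleukin matured by caspase 1, reached 1.02 TPM in the fourth western diet library and stayed between 0.0707 and 0.901 TPM in the others. Also below 1 TPM throughout were Ccl3, Ccl4 and Cxcl2, which attract monocytes, T cells and neutrophils, Ptgs2, the inducible prostaglandin synthase, Nlrp3, the inflammasome sensor, and the selectins Sele and Selp. In all, 12 members never reached 1 TPM and 5 did so in only 1 or 2 libraries. The remaining 24 were at 1 TPM or more in all 8 libraries, and these were tested.

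**Figure D1:**
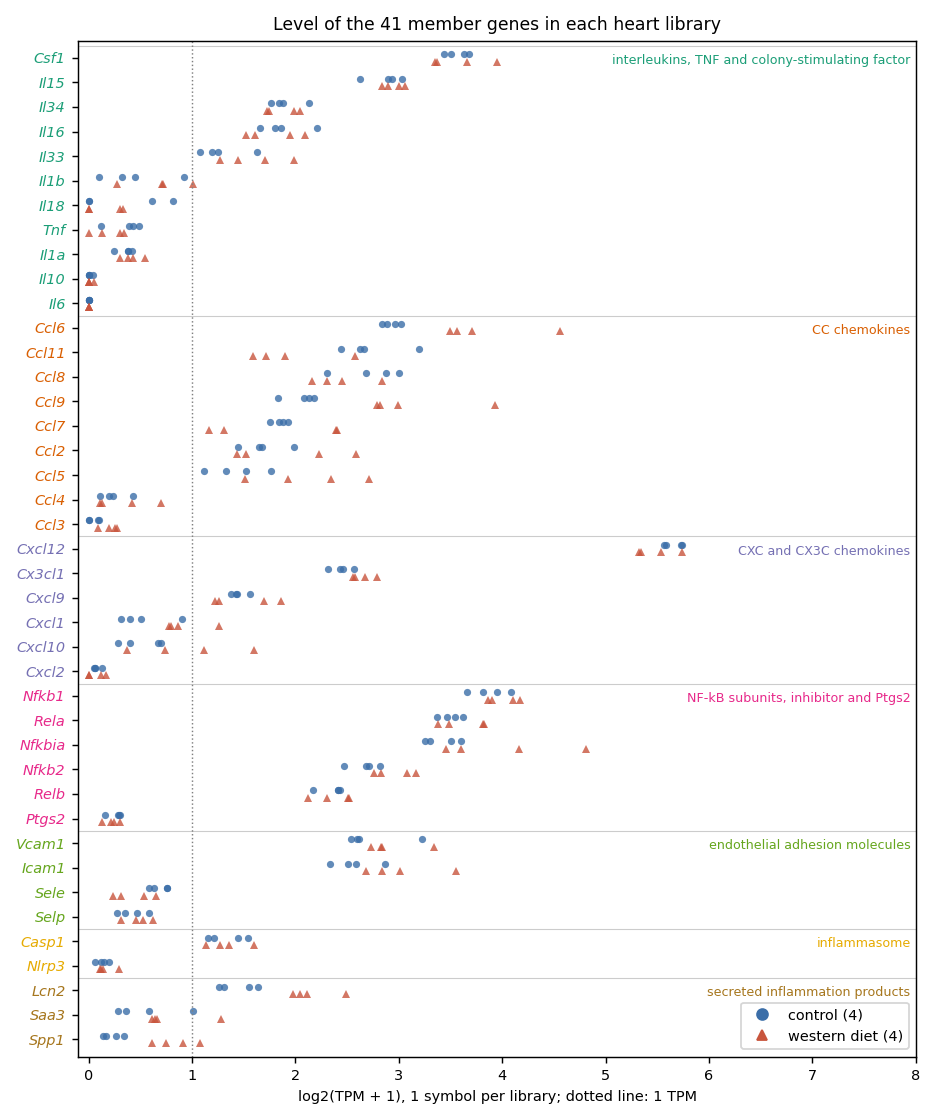
Level of each of the 41 genes, as log2(TPM + 1) on the horizontal axis, with 1 symbol per library (circles, 4 control, and triangles, 4 western diet) and genes grouped by role. Cxcl12 lies far to the right, the classical cytokines lie left of the dotted line at 1 TPM, and the triangles of Ccl6, Ccl9, Lcn2 and Spp1 lie right of all their circles.

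Cxcl12, the chemokine that holds CXCR4-bearing cells in tissues and is made by stromal cells and endothelium, was the most abundant member by far, at 49.5 ± 3.22 TPM in control (SD, n = 4). Its lowest control library (46.5 TPM) lay well above the highest library of the next gene, Nfkb1 (16.002 TPM). Nfkb1, which encodes the p105 precursor of the p50 subunit, was at 13.8 ± 1.87 TPM. Csf1, the growth factor of macrophages, followed at 10.8 ± 0.905 TPM and Rela, the p65 subunit, at 10.3 ± 0.830 TPM. Nfkbia was at 9.72 ± 1.23 TPM, and the control libraries of these last 4 genes overlap from each to the next. Another 7 members had a control mean of 5 to 10 TPM, namely Ccl6, Il15, Vcam1, Ccl11, Ccl8, Nfkb2 and Icam1.

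The question put to these genes was whether western diet hearts differed from control hearts. No member passed the test over all genes: 0 of the 24 tested had a limma adjusted p under 0.05, beside 0.301% of all 10969 genes tested (33 genes; 0.228% higher and 0.0729% lower with western diet). At an unadjusted p under 0.05, limma gave 8 of the 24, or 33.3%, beside 11.7% of all genes. Of these, 7 were higher with western diet (Ccl9, Ccl6, Lcn2, Ccl5, Nfkbia, Icam1 and Nfkb2; 9.20% of all genes were higher at that level) and 1, Ccl11, was lower (2.51%). The median difference over the 24 members was 0.13 in log2(TPM + 1), beside 0.06 over all genes. Means were higher with western diet for 18 of 24 members on that scale, beside 66.4% of all genes. Groups did not overlap for 3 of the 24, each higher with western diet, beside 6.60% of all genes (4.85% higher and 1.75% lower). Library by library, western diet replicate 1 was the highest of its group for 12 of the 24. Differences below are given on the log2(TPM + 1) scale with their standard error (SE), and this scale understates the change of low genes.

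**Figure D2:**
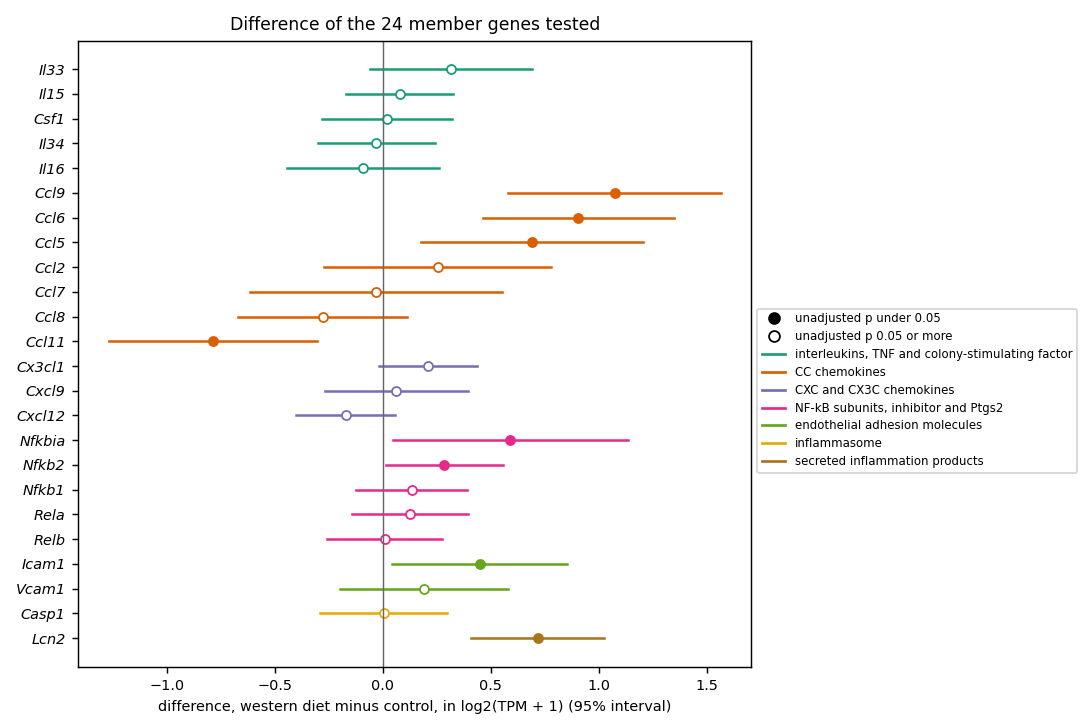
Difference between western diet and control in log2(TPM + 1) for the 24 genes tested (horizontal axis), with 95% intervals from limma, coloured by role. Filled points mark an unadjusted p under 0.05. Ccl9, Ccl6 and Lcn2 lie farthest to the right and Ccl11 farthest to the left, and no adjusted p fell under 0.05.

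Among the CC chemokines, Ccl9 (ENSMUSG00000019122, chromosome 11, 83572919 to 83578636 on GRCm38) had the largest difference of all members tested. Ccl9, which attracts myeloid cells through CCR1, was at 2.56, 3.39, 3.55 and 3.25 TPM in the controls and at 14.2, 6.04, 5.92 and 6.96 TPM with western diet. The groups do not overlap, and western diet replicate 1 stands far above the other 3 libraries of its group. The mean was 8.28 ± 3.97 against 3.19 ± 0.434 TPM, a ratio of 2.60 (SD, n = 4 per group), with a log2 difference of 1.07 (SE 0.22, limma adjusted p = 0.0793). Ccl6, a related chemokine of myeloid cells whose gene (ENSMUSG00000018927, 83587882 to 83593087) lies beside Ccl9, was at 6.37, 7.12, 6.81 and 6.14 TPM in the controls and at 22.6, 12.1, 10.2 and 10.8 TPM with western diet. Its groups do not overlap either, and replicate 1 is again the highest. The log2 difference of Ccl6 was 0.91 (SE 0.20, limma adjusted p = 0.101), with means of 13.9 ± 5.83 against 6.61 ± 0.436 TPM.

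Leaving out western diet replicate 1 made both differences smaller and more even. Without it the log2 difference was 0.81 for Ccl9 (SE 0.13, limma adjusted p = 0.0362) and 0.66 for Ccl6 (SE 0.11, limma adjusted p = 0.0426), so both then passed. A term for Y-linked transcripts leaves western diet replicate 4 as the only library of its diet with such transcripts. The difference is then that of replicate 4 alone against the 4 controls. It was 0.93 for Ccl9 and 0.64 for Ccl6. This value rests on 1 library, the one with the most Irf7 and Isg15. It cannot show whether a difference goes with diet or with the Y-linked transcripts. The 2 genes could be told apart in counting. Their transcripts were compared in 31-base words with those of all other genes. Ccl6 shared 1.02% of its words and Ccl9 3.75% with any other gene, most often with Slc17a4 and Smarcb1. Words that Ccl6 and Ccl9 share with each other were not counted apart.

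Ccl5, which draws T cells, natural killer cells and monocytes, was at 1.51, 1.17, 1.87 and 2.39 TPM in control and at 2.81, 4.07, 5.54 and 1.85 TPM with western diet. Western diet replicate 4 lies within the control range and the other 3 lie above it. The log2 difference was 0.69 (SE 0.23, limma adjusted p = 0.274). With the Y-linked term, which sets replicate 4 alone against the controls, it was 0.08. Of 10 markers of T and natural killer cells, 9 had a higher mean with western diet and Cd4 a lower one. The most abundant of them were Nkg7, with 0.810, 1.32, 1.55 and 0.186 TPM in western diet replicates 1 to 4, Cd4, with 0.489, 0.705, 0.453 and 0.686 TPM, and Cd3g, with 0.289, 0.908, 0.704 and 0.596 TPM. Nkg7 was lowest in replicate 4, as Ccl5 was, and so were Cd3e, Cd8a, Cd8b1, Gzma and Klrd1 of the same list. Cd4, Cd3g, Cd3d and Lck were not. None of these markers reached the minimum for testing. Their summed level was 2.10 to 3.24 TPM in control and 4.43, 6.32, 5.27 and 3.02 TPM in western diet replicates 1 to 4. That sum, too, was lowest in replicate 4, and its part in the level of Ccl5 was not tested.

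Ccl11, or eotaxin, attracts eosinophils and is made by fibroblasts and smooth muscle. It was the only member lower with western diet at an unadjusted p under 0.05. Its levels were 5.33, 8.14, 5.16 and 4.43 TPM in control and 4.96, 2.01, 2.28 and 2.74 TPM with western diet. Western diet replicate 1 lies among the controls, and the other 3 lie below all of them. The log2 difference was -0.78 (SE 0.22, limma adjusted p = 0.186), and without western diet replicate 1 it was -0.99 (SE 0.18, limma adjusted p = 0.0503). Of 8 fibroblast markers 7 had a higher mean with western diet. Of 7 tested smooth muscle and pericyte markers 5 had a lower mean and 1 of them, Tagln, fell (limma adjusted p = 0.0169). Acta2 of the same list was at 80.8 TPM with western diet against 33.4 TPM in control, without overlap (limma adjusted p = 0.0630). The summed level of that list was 224 to 266 TPM in control and 240.3 to 317 TPM with western diet. The part of these cells in the level of Ccl11 was not tested. In bulk tissue, fewer cells of a type and less RNA per cell cannot be told apart.

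Ccl2 and Ccl7, neighbouring genes whose products call monocytes through CCR2, differed among the western diet libraries more than between the groups. Ccl2 was at 1.88 and 1.70 TPM in western diet replicates 1 and 2, and at 3.68 and 4.997 TPM in replicates 3 and 4, against 1.72 to 2.97 TPM in control. Ccl7 was at 1.24 and 1.49 TPM in the first pair and at 4.26 and 4.29 TPM in the second, on either side of the narrow control range of 2.38 to 2.80 TPM. Both genes are thus low in one pair of western diet libraries and high in the other. For Ccl2 the difference was 0.04 without western diet replicate 4 and 0.90 with the Y-linked term, where replicate 4 alone stands for its diet. In the fit of all libraries the log2 differences were 0.25 for Ccl2 (SE 0.24, limma adjusted p = 0.729) and -0.03 for Ccl7 (SE 0.26, limma adjusted p = 0.977). Their shared receptor gene, Ccr2, was at 0.919 to 1.25 TPM in control and 0.549 to 1.02 TPM with western diet and was not tested. Ccl8, another CC chemokine of this stretch of chromosome 11, was at 3.93 to 6.996 TPM in control and 3.48 to 6.15 TPM with western diet (log2 difference -0.28, SE 0.18, limma adjusted p = 0.587).

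By position, the CC chemokine members fall into a pair of stretches of chromosome 11 on GRCm38. Ccl2, Ccl7, Ccl11 and Ccl8 lie between 82035571 and 82116799, and Ccl5, Ccl9, Ccl6, Ccl3 and Ccl4 between 83525778 and 83664683, some 1409 kb farther on. The mean level was higher with western diet for each of the 5 genes of the second stretch. Of all genes tested, 66.4% had a higher mean of log2(TPM + 1). That share does not cover Ccl3 and Ccl4, which were not tested. Ccl3 and Ccl4 are low, with Ccl3 at 0 to 0.0718 TPM in control and 0.0658 to 0.207 TPM with western diet, and Ccl4 at 0.0787 to 0.344 and 0.0802 to 0.626 TPM. A fit without the minimum for testing, over 21108 genes, gave a log2 difference of 0.16 for Ccl3 (SE 0.05, limma adjusted p = 0.391). For Ccl4 it gave 0.10 (SE 0.14, limma adjusted p = 0.827). In the first stretch the mean of log2(TPM + 1) was higher for Ccl2 and lower for Ccl7, Ccl11 and Ccl8. For Ccl7 the mean of TPM itself was higher, at 2.82 against 2.61 TPM, so its sign depends on the scale. This order of the genes is a description, and no test of position was made.

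**Figure D3:**
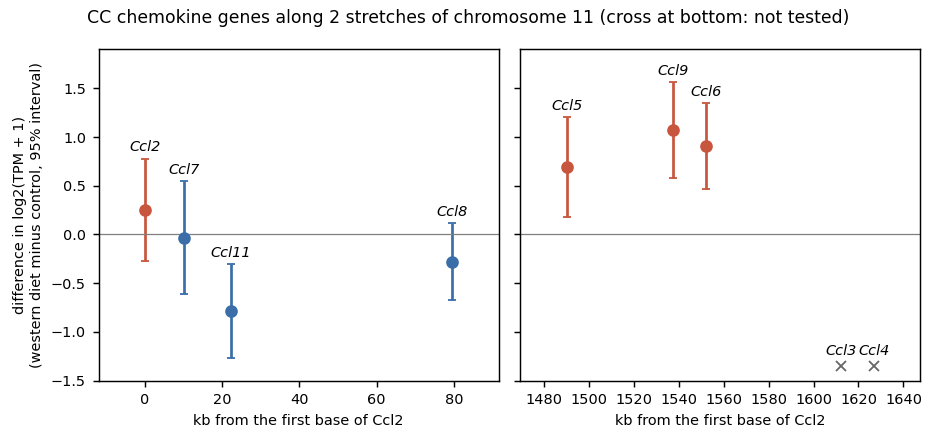
Difference in log2(TPM + 1) between western diet and control (vertical axis, 95% intervals) for CC chemokine genes by distance from the first base of Ccl2 in kb. Points for Ccl5, Ccl9 and Ccl6 in the right panel lie above 0, Ccl11 in the left panel lies below it, and crosses at the bottom mark Ccl3 and Ccl4, which were not tested.

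The CXC and CX3C chemokines did not separate the groups. Cxcl12 was at 44.1 ± 6.22 TPM with western diet (log2 difference -0.17, SE 0.11, limma adjusted p = 0.566). Cx3cl1, or fractalkine, a membrane-bound chemokine of endothelium, was at 3.96 to 4.93 TPM in control and 4.87 to 5.93 TPM with western diet, so that the groups meet only at their edges (log2 difference 0.21, SE 0.10, limma adjusted p = 0.465). Cxcl9, induced by interferon gamma, was at 1.73 ± 0.149 TPM in control and 1.903 ± 0.641 TPM with western diet (limma adjusted p = 0.911). Cxcl10, an interferon-induced chemokine for activated T cells, exceeded 1 TPM only in western diet replicates 3 (2.02 TPM) and 4 (1.16 TPM), the other 6 libraries lying between 0.220 and 0.668 TPM. Cxcl1, a neutrophil chemokine, was at 0.239 to 0.872 TPM in control and at 0.715 to 1.39 TPM with western diet. Neither Cxcl10 nor Cxcl1 reached the minimum for testing. The fit without it gave log2 differences of 0.44 for Cxcl10 (SE 0.25, limma adjusted p = 0.646) and 0.39 for Cxcl1 (SE 0.16, limma adjusted p = 0.520).

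Of the secreted products of inflammation, Lcn2 (ENSMUSG00000026822, chromosome 2, 32384633 to 32388252) and Spp1 (chromosome 5, 104435118 to 104441050) had groups that do not overlap. Of all genes tested, 4.85% were higher without overlap, a share that does not cover Spp1, which was not tested. Lcn2, lipocalin 2, which binds bacterial iron carriers and is made by neutrophils and stressed tissue cells, was at 1.92, 2.12, 1.47 and 1.399 TPM in control and at 4.61, 3.13, 2.94 and 3.32 TPM with western diet. All western diet libraries lay above all controls, again with replicate 1 the highest. Its mean was 3.501 ± 0.756 against 1.73 ± 0.350 TPM, with a log2 difference of 0.72 (SE 0.14), and it had the smallest adjusted p of any member (limma adjusted p = 0.0652). With the Y-linked term, so for western diet replicate 4 alone, the difference was 0.67. Without western diet replicate 1 it was 0.61 (SE 0.13, limma adjusted p = 0.115). Lcn2 passed with array weights (limma adjusted p = 0.0370) and after rescaling without mitochondrial genes (limma adjusted p = 0.0467), as did Ccl9 (0.0358 and 0.0493), and of these settings Ccl6 passed with array weights only (0.0358).

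Spp1, osteopontin, a matrix-bound cytokine of activated macrophages, was at 0.267, 0.124, 0.203 and 0.103 TPM in control and at 0.531, 1.12, 0.682 and 0.880 TPM with western diet. These levels are low in every library, and Spp1 did not reach the minimum for testing. In a fit without that minimum, over 21108 genes, the log2 difference was 0.61 (SE 0.10, limma adjusted p = 0.155). Of its 31-base words 14.3% are shared with other genes, chiefly the unnamed model Gm42793, so reads could be split between them. Saa3, an acute phase protein, was at 0.220 to 1.01 TPM in control and 0.534 to 1.43 TPM with western diet.

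**Figure D4:**
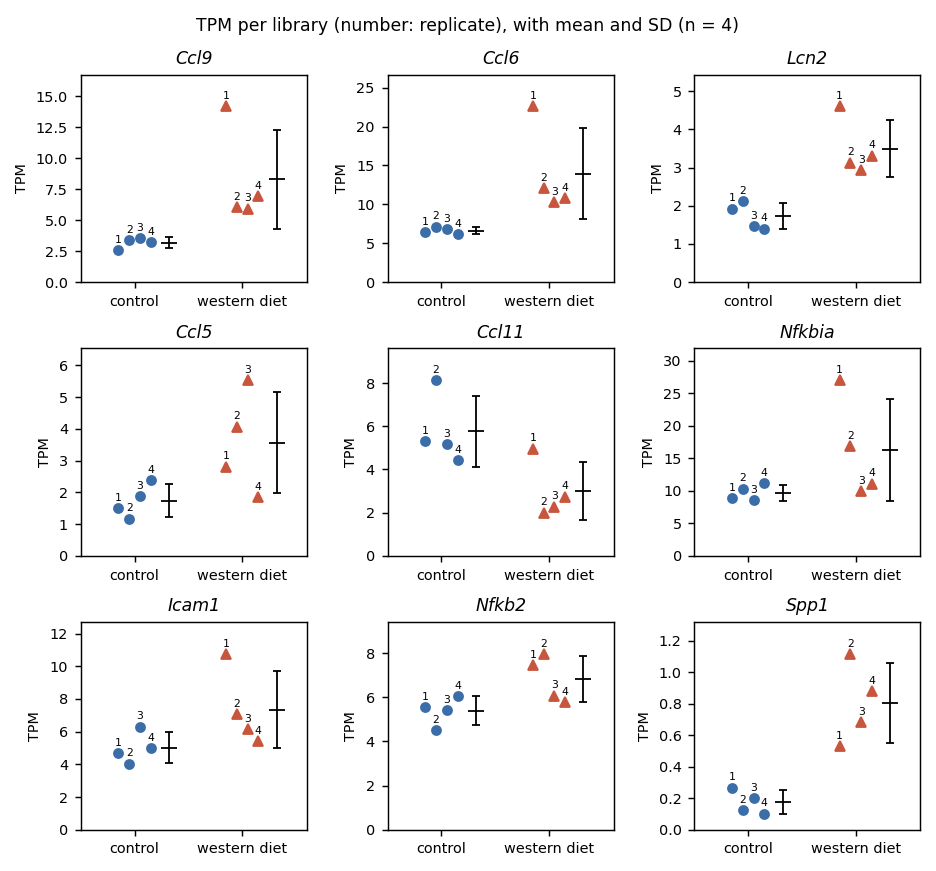
TPM of 9 genes in each library (vertical axes start at 0; the number beside a point is the replicate), with the mean and SD of each group (n = 4) to the right of the points. Ccl9, Ccl6, Lcn2 and Spp1 show no overlap between the groups. Ccl11 is lower in 3 of 4 western diet libraries than in any control. Nfkbia lies above the controls in western diet replicates 1 and 2 only.

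Within NF-kB signalling, the inhibitor Nfkbia (ENSMUSG00000021025, chromosome 12, 55489410 to 55492647) differed in 2 of the 4 western diet libraries. It was at 8.87, 10.4, 8.54 and 11.1 TPM in control and at 27.03, 16.9, 9.98 and 11.1 TPM with western diet. Replicates 1 and 2 lie above every control, and replicates 3 and 4 lie within the control range. The log2 difference was 0.59 (SE 0.25, limma adjusted p = 0.392), and it was 0.32 without replicate 1 (SE 0.17, limma adjusted p = 0.561). With the Y-linked term, which sets replicate 4 alone against the controls, it was 0.18. Nfkb2, the p100 precursor of p52 in the non-canonical pathway, was at 5.56, 4.53, 5.43 and 6.07 TPM in control and at 7.45, 7.97, 6.08 and 5.79 TPM with western diet. It, too, was higher in replicates 1 and 2 than in replicates 3 and 4. Its log2 difference was 0.29 (SE 0.12, limma adjusted p = 0.407), or 0.09 with the Y-linked term, again for replicate 4 alone.

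The other subunit genes lay closer together. Nfkb1 was at 15.2 ± 1.69 TPM with western diet (log2 difference 0.13, SE 0.12, limma adjusted p = 0.703). Rela was at 13.1 TPM in western diet replicates 1 and 2 and at 9.41 and 10.2 TPM in replicates 3 and 4, against 9.36 to 11.3 TPM in control (limma adjusted p = 0.737). Relb, the partner of p52, was at 4.18 ± 0.663 against 4.13 ± 0.418 TPM, a difference of 0.01 that turns to -0.05 under median-of-ratios and -0.07 under quantile scaling (limma adjusted p = 0.986). The 95% intervals of the differences allow between -0.12 and 0.39 for Nfkb1 and between -0.26 and 0.27 for Relb on the log2 scale.

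Of the adhesion molecules, Icam1 (ENSMUSG00000037405, chromosome 9, 21015985 to 21028817), the endothelial ligand of leukocyte beta 2 integrins, was at 4.68, 4.05, 6.31 and 5.01 TPM in control and at 10.8, 7.08, 6.14 and 5.43 TPM with western diet. Western diet replicates 1 and 2 lie above the controls, and the other pair lies within their range. The log2 difference was 0.45 (SE 0.18, limma adjusted p = 0.381). With the Y-linked term, which sets replicate 4 alone against the controls, it was 0.11. Vcam1, the ligand of the integrin VLA-4, was at 4.83 to 8.32 TPM in control and 5.64 to 9.10 TPM with western diet (log2 difference 0.19, SE 0.18, limma adjusted p = 0.727). Without western diet replicate 1 the difference of Vcam1 was 0.0549, without control replicate 3 it was 0.35, and with the Y-linked term it was 0.0916. The selectins Sele and Selp, which slow leukocytes on activated endothelium, were low and not tested. Sele was at 0.504 to 0.694 TPM in control and 0.179 to 0.576 TPM with western diet, and Selp at 0.209 to 0.501 and 0.245 to 0.535 TPM. In the fit without the minimum, the log2 difference was -0.25 for Sele (SE 0.10, limma adjusted p = 0.525) and 0.06 for Selp (SE 0.09, limma adjusted p = 0.836). The summed level of 10 endothelial markers overlapped between groups, at 253 to 298 TPM in control and 273 to 313 TPM with western diet. A sum can hide single markers: 1 of the 10, Cldn5, rose without overlap, at 17.3 against 8.57 TPM (limma adjusted p = 0.00527).

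No tested interleukin, and neither Csf1 nor Casp1, passed the test. Il15, which sustains natural killer cells, was at 6.74 ± 0.557 against 6.35 ± 0.851 TPM (log2 difference 0.08, SE 0.11, limma adjusted p = 0.838), and at a difference of -0.0094 under quantile scaling. Il33, an alarm signal stored in nuclei of stromal and endothelial cells, was at 1.11 to 2.09 TPM in control and 1.41 to 2.97 TPM with western diet (log2 difference 0.32, SE 0.17, 95% interval -0.06 to 0.69, limma adjusted p = 0.506), and its difference was 0.19 without western diet replicate 1 and -0.0155 with the Y-linked term. Il34 and Csf1, the 2 ligands of the macrophage receptor CSF1R, had log2 differences of -0.03 (SE 0.12) and 0.02 (SE 0.14), with limma adjusted p of 0.954 and 0.972, and that of Csf1 was -0.05 and -0.07 under median-of-ratios and quantile scaling. Il16, a chemoattractant of CD4+ cells, was at 2.51 ± 0.660 against 2.72 ± 0.630 TPM (limma adjusted p = 0.873). Casp1, the protease that matures IL-1 beta and IL-18, was at 1.55 ± 0.354 against 1.54 ± 0.328 TPM (log2 difference 0.01, 95% interval -0.29 to 0.30, limma adjusted p = 0.994), and both other scalings gave -0.04.

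Receptors and signalling partners of these members were counted from fixed lists of 101 genes, of which 68 were tested. None passed in limma after adjustment over all genes, and 11 had an unadjusted p under 0.05, 10 of them higher and 1 lower with western diet. That is 16.2% of the 68, beside 11.7% of all genes. The median log2 difference was 0.10 over these 68, beside 0.06 over all genes. Among 13 cytokine receptors and decoys, 2 were higher and 1 lower at that level. Tnfrsf1b, the second receptor of tumour necrosis factor, was at 2.23 to 2.77 TPM in control and 3.28 to 3.87 TPM with western diet (log2 difference 0.38, SE 0.10, limma adjusted p = 0.163). Il2rg, the common gamma chain, was at 8.12 ± 0.928 against 6.18 ± 0.808 TPM (limma adjusted p = 0.280). Il15ra, which presents IL-15, was lower, at 9.16 ± 1.70 against 11.8 ± 1.85 TPM (limma adjusted p = 0.399). Of the chemokine receptors, Cxcr4 and Ackr3, which both bind CXCL12, had limma adjusted p of 0.808 and 0.889. Cx3cr1, the receptor of fractalkine, had a limma adjusted p of 0.859.

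In the NF-kB signalling list, 4 of 30 tested genes were higher at an unadjusted p under 0.05 and 0 lower, or 13.3%, beside 9.20% of all genes higher at that level. Myd88, the adaptor of Toll-like and IL-1 receptors, was at 4.98 to 6.26 TPM in control and 6.599 to 8.32 TPM with western diet (log2 difference 0.36, SE 0.11, limma adjusted p = 0.223). Irak2, a kinase that acts just after MYD88, was at 2.00 to 2.87 TPM and 2.98 to 6.32 TPM (log2 difference 0.61, SE 0.19, limma adjusted p = 0.226), and Bcl3, a nuclear IkB protein, at 1.49 to 2.18 TPM and 2.20 to 3.85 TPM (limma adjusted p = 0.352). Groups did not overlap for these 3 genes, beside 4.85% of all genes without overlap and higher. Of 6 tested inflammasome partners 1 was higher at that level, namely Txnip, a thioredoxin-binding protein that also responds to glucose, at 182 ± 79.3 against 106 ± 43.6 TPM (limma adjusted p = 0.363). Nek7, a partner of NLRP3, had a limma adjusted p of 0.517 and Pycard, the adaptor ASC, one of 0.669.

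Of 15 tested adhesion partners, 3 were higher at an unadjusted p under 0.05, beside 9.20% of all genes. Selplg, the leukocyte ligand of P-selectin, was at 1.31 to 1.82 TPM in control and 2.27 to 2.84 TPM with western diet (log2 difference 0.46, SE 0.11, limma adjusted p = 0.118). Itgb2, the beta chain of the integrins that bind ICAM1, was at 1.55 to 2.20 TPM and 2.41 to 3.52 TPM (log2 difference 0.47, SE 0.12, limma adjusted p = 0.163). Itgam, an alpha chain that pairs with it on myeloid cells, was at 0.909 to 1.02 TPM and 1.16 to 1.52 TPM (limma adjusted p = 0.398). The groups did not overlap for any of these 3, beside 4.85% of all genes without overlap and higher. Itgax, another leukocyte integrin gene of the list, was at 0.197 TPM with western diet against 0.273 TPM in control and was not tested.

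Levels of myeloid cell markers are given here beside those of the chemokines. All 10 tested of 12 macrophage markers had a higher mean with western diet, beside 66.4% of all genes, and none passed. Groups did not overlap for 3 of the 10, each higher, beside 4.85% of all genes. The summed level of the 12 was 112 to 141 TPM in control and 139 to 236 TPM with western diet. Most of it came from C1qa, C1qb and C1qc, with control means of 38.2, 34.4 and 23.1 TPM and western diet means of 53.5, 48.2 and 30.9 TPM. The highest of these sums was that of western diet replicate 1, the library with the most Ccl6, Ccl9, Lcn2, Nfkbia and Icam1. Without that library the western diet sums were 139 to 154 TPM. Of 7 monocyte markers 4 were tested. All 4 were higher without overlap, beside 4.85% of all genes, and 1, Ly6c2, rose (limma adjusted p = 0.0169). Ly6c2 and Plac8 reached 1 TPM only in the 4 western diet libraries. They thus met the minimum for testing only through the group where they are high, and their counts here are partly fixed by that minimum. The monocyte sum was 5.15 to 6.26 TPM in control and 8.68 to 13.1 TPM with western diet. Of 12 neutrophil markers only S100a8, which rose (limma adjusted p = 0.0319), and S100a9 were high enough to be tested. Elane was at 0 in all libraries and Ly6g in 7 of 8, while the neutrophil sum was 5.10 to 9.19 TPM in control and 10.04 to 19.1 TPM with western diet. Markers with a lower mean with western diet were Ccr2 (0.694 against 1.05 TPM), Timd4 (0.715 against 0.807 TPM) and Mmp9 (0.635 against 0.722 TPM), none of them tested. The part of these cells in the differences of Ccl6, Ccl9 and Lcn2 was not tested.

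**Figure D5:**
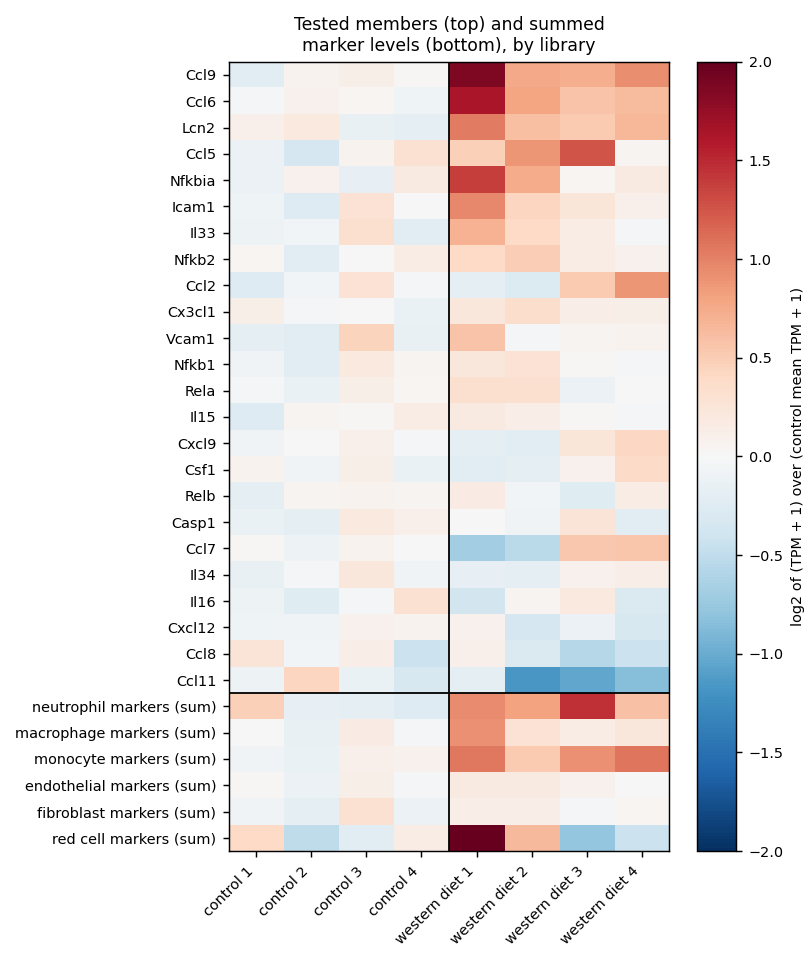
Each library's level relative to the control mean, as the log2 ratio of TPM + 1 (colour), for the 24 genes tested (upper rows, ordered by their difference) and for summed marker levels of 6 cell types (lower rows). Western diet replicate 1 is the darkest column for Ccl9, Ccl6 and Nfkbia and for macrophage and red cell markers, and Ccl2 and Ccl7 are high in western diet replicates 3 and 4.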

How the data were processed

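The authors deposited 1 table of TPM values, with Ensembl gene identifiers in rows and 8 libraries in columns. Per the labels' protocols, RNA was extracted with a Qiagen kit and sequenced from stranded TruSeq libraries of polyadenylated RNA. Named in the submitters' processing notes are kallisto, DESeq2 and the build GRCm38, without versions or roles. The annotation is not given in the sources used here. Each TPM value is relative and keeps no depth, so no counting error is given.

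Identifiers were named and placed with GENCODE vM21 (GRCm38), which named 29732 of 30153. The 41 members and all gene lists were chosen with earlier results of these data known. The 10969 genes that reached 1 TPM in 4 or more of the 8 libraries were tested with limma 3.58.1 (R 4.3.3) on log2 of TPM plus 1, with group as the only term, an intensity trend, a two-sided test and Benjamini-Hochberg adjustment over all genes. The fit was tested on simulated data. Named were all members and, of each partner list, up to 3 tested genes of smallest p (Ccr2 and Itgax are outside this rule and were named after their values were seen, and 1 partner gene is not reported here). Marker genes named outside their rule of highest level, namely Tagln, Cldn5, Timd4, Elane and Ly6g, were also chosen after their values were seen. So were Isg15 and the T and natural killer cell markers outside that rule. Alternatives varied the pseudocount, filter, scaling, variance prior and weights, added a Y-linked term and left out libraries. Promoters came from RefSeq (GRCm38.p6). Python 3.11.15, pandas 2.3.3 and matplotlib 3.10.9 were used.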

Additional observations from a re-analysis of the deposited data

Results flagged for a closer look

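In 13 of 110 groups of 4 libraries checked, over members and named partners, the highest or lowest library lay apart from the other 3 by Dixon's gap over range. Chance flags about 1 in 20 groups of normally distributed values, which TPM near 0 need not be. A group with 3 zeros is always flagged, as for Il10, so 13 of 110 cannot be set against that share. Western diet replicate 1 stood apart for Ccl6 (22.6 TPM, others 10.2 to 12.1), Ccl9 (14.2 TPM, others 5.92 to 6.96) and Vcam1 (9.10 TPM, others 5.64 to 6.13). Western diet replicate 4 did so for Cxcl1 (1.39 TPM, others 0.715 to 0.818) and Saa3 (1.43 TPM, others 0.534 to 0.579), and western diet replicate 3 for Nlrp3 (0.225 TPM, others 0.0826 to 0.0984). Among controls, replicate 3 was high for Vcam1 (8.32 TPM, others 4.83 to 5.13) and Cx3cr1 (1.55 TPM, others 1.03 to 1.05), and replicate 4 for Cxcl2 (0.0906 TPM). Control replicate 1 was low for Relb (3.51 TPM, others 4.32 to 4.38) and control replicate 2 for Ptgs2 (0.116 TPM, others 0.215 to 0.232). Il10 was listed above 0 only in control replicate 1 (0.0323 TPM) and western diet replicate 2 (0.0392 TPM).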

How the results depend on the processing

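No paired analysis was possible because the labels give no replicate numbers, so no control library has a counterpart with western diet. Members past the adjusted threshold numbered 0 in the reported fit, 3 with array weights (Ccl6, Ccl9 and Lcn2), 2 after rescaling without mitochondrial genes (Ccl9 and Lcn2), 2 without western diet replicate 1 (Ccl6 and Ccl9), and 0 under every other alternative. Leaving out 1 library gave 0 to 2 of them. None was past it in the lower direction, and no partner gene was, under any alternative run. At an unadjusted p under 0.05, the 7 higher members became 4 without the 3 libraries with atrial transcripts. They were 4 to 8 with 1 library left out, and 4 without control replicate 1 or 2 or western diet replicate 1 or 2. The 1 lower member became 0 at a mean of at least 5 TPM, where Ccl11 is no longer among the 12 members tested, and 2 with no filter, median-of-ratios or quantile scaling; it was 1 to 3 with 1 library left out, 2 without control replicate 4 and 3 without western diet replicate 1. Of all genes, 33 passed the adjusted threshold, against 5 with no filter, 15 at a mean of at least 5 TPM, 61 with quantile scaling, 108 with array weights, 54 with the Y-linked term, 2 without the atrial libraries, and 9 to 90 with 1 library left out (15, 9, 12 and 14 without control replicates 1 to 4, 90 without western diet replicate 4). The share of these calls that were higher was 75.8%, and 63.3% and 65.6% under median-of-ratios and quantile scaling. The sign turned, with no member past the threshold, as follows. With the Y-linked term, western diet replicate 4 alone is set against the controls. Log2 differences then became -0.0155 for Il33, -0.0374 for Il15, 0.14 for Il34, 0.55 for Ccl7, -0.0167 for Nfkb1, -0.0124 for Rela and -0.20 for Casp1. Without the atrial libraries they became -0.0501 for Il15, 0.0658 for Il34, 0.19 for Ccl7 and -0.0272 for Relb. Median-of-ratios scaling gave -0.0515 for Csf1, -0.0547 for Relb and -0.0403 for Casp1, quantile scaling gave -0.0094 for Il15, -0.0666 for Csf1, -0.0745 for Relb and -0.0434 for Casp1, and array weights gave -0.0473 for Csf1. With 1 library left out, differences ran from -0.0035 to 0.13 for Il15, -0.19 to 0.0176 for Il16, -0.0852 to 0.0464 for Il34, -0.10 to 0.10 for Csf1, -0.23 to 0.19 for Ccl7, -0.0538 to 0.16 for Cxcl9, -0.0528 to 0.0891 for Relb and -0.0818 to 0.0739 for Casp1. Apart from the settings that test fewer genes or samples, the cause was not tested.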
